A study of Mus musculus with 2 samples.

Results

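The genes described here are 8 microRNA genes used as markers of blood cells, taken by name from the 2202 microRNA genes counted in the deposited files. They are the erythroid genes Mir144 and Mir451a and the white blood cell genes Mir142, Mir223, Mir150, Mir155, Mir146 and Mir146b, where Mir146 is the annotation's name for Mir146a. They were measured by microRNA sequencing of tissue labelled as gastrocnemius, a calf muscle, from male pups of 4 days of age. The strain was B6CASTF1/J, the hybrid of C57BL/6 and CAST mice, with no treatment or engineered allele named. There was 1 group of 2 libraries, replicate 1 (animal 3) and replicate 2 (animal 4), from separate biosamples that share a donor identifier in the labels, and no second condition. The libraries were made from whole tissue, so the cells behind a read are not known.

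MicroRNAs are short RNAs that repress messenger RNAs, and they pair mainly through the seed near their 5′ end. Mir144 and Mir451a are made from a shared primary transcript that the erythroid factor GATA1 switches on, and miR-451a is among the most abundant microRNAs of red cells. It is unusual in that its hairpin is cut by Argonaute 2 and not by Dicer. Mir142 is active in nearly all blood cell lineages, Mir223 chiefly in neutrophils and other myeloid cells, and Mir150 in mature lymphocytes. Mir155 and Mir146 are induced when immune cells are activated, and both are also expressed outside the blood.

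The mature forms show which members could be mistaken for each other, so those on which the counts turn are printed with the seed, bases 2 to 8, in capitals. All 8 members were matched by symbol in the RefSeq table for GRCm38.p6. For Mir150 that table gave miR-150-3p only, so the seed of miR-150-5p was not compared.
miR-144-3p: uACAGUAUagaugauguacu
miR-451a: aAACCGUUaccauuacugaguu
miR-142a-5p: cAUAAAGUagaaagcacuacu
miR-142a-3p: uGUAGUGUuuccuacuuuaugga
miR-223-3p: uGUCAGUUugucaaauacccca
miR-155-5p: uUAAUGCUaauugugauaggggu
miR-146a-5p: uGAGAACUgaauuccauggguu
miR-146b-5p: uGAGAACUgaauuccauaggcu
Of these mature forms, miR-146a-5p and miR-146b-5p alone had a seed in common with another mature microRNA of the table, and that was each other. They are identical at 20 of 22 bases and differ by G18A and U21C, counted from the 5′ end with miR-146a-5p as the reference. No member shared a stretch of 22 nt with a microRNA gene at another locus, as far as annotated microRNA genes go.

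Mir144 (mm10 chromosome 11, 78073005 to 78073070) and Mir451a (78073170 to 78073241) lie on the plus strand 100 bp apart and overlap no longer gene of the annotation. Mir451a covers exactly the same bases as Mir451b on the minus strand. Its hairpin is printed with the mature form in capitals to show where that form is annotated. Reads were counted per gene, so their position within the hairpin is not known.
Mir451a hairpin: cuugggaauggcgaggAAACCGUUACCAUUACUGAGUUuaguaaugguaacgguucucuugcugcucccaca
The mature form starts at base 17 of 72 and shares no position with miR-451b, which is annotated at the other end of the locus. Mir142 (chromosome 11, 87756864 to 87756927) lies in an intron of its noncoding host Mir142hg and inside Mir142b, which is annotated on the opposite strand. There the overlap includes the mature forms, since 20 nt of miR-142a-3p (23 nt) face the whole of miR-142b.
miR-142b: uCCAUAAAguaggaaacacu

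The other white blood cell genes lie apart. Mir223 (chromosome X, 96242817 to 96242926) and Mir155 (chromosome 16, 84714140 to 84714204) are in exons of the noncoding genes F630028O10Rik and Mir155hg. Mir146b (chromosome 19, 46342762 to 46342870) is in an intron of Mfsd13a. Mir150 (chromosome 7, 45121757 to 45121821) and Mir146 (chromosome 11, 43374397 to 43374461) overlap no other annotated gene.

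The libraries held 4458853 and 3073086 reads on the sense strand of microRNA genes, and levels are given as CPM, reads per 1000000 of this total. The tissue label was met by its markers in replicate 1 only. Replicate 1 had 652657 reads of Mir206, which is restricted to skeletal muscle, where replicate 2 had 101. Mir208a, restricted to the heart, showed the reverse with 59 reads and 29718. Replicate 2 thus went against its label, and the ratios below may compare different tissues. The libraries are still called by their labelled replicate numbers. Mir206 and the microRNA genes of the imprinted Dlk1-Dio3 domain took 47.6% of the reads of replicate 1 and 0.976% of replicate 2, so the CPM of a gene that kept its level relative to the remaining genes would be higher in replicate 2. Log2 ratios, replicate 2 over replicate 1, were therefore scaled by the method called TMM, which trims the most divergent genes before it sets the library sizes. A gene was called higher or lower with an adjusted p under 0.05 in a two-sided exact binomial test over 410 genes and a log2 ratio of at least 1 in size. That test sets the libraries against counting noise and does not compare conditions.

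Blood cell microRNAs made up 0.101% of the microRNA reads of replicate 1 (95% interval 0.0984 to 0.104%) and 0.527% of replicate 2 (0.519 to 0.536%). Mir144, Mir451a, Mir150, Mir155 and Mir146 were called higher in replicate 2, Mir223 was called lower, Mir142 was called in neither direction, and Mir146b had too few reads to test. Of the 7 members tested, 5 were thus higher and 1 was lower, where 17.6% of all tested genes were higher and 36.1% lower. The median log2 ratio of the 7 was 1.79, and that of all tested genes was −0.33. The Dlk1-Dio3 domain holds 66 of the counted genes, and many of those tested were lower, such as Mir127 at −5.29. They are part of the 36.1% and of the median of all tested genes, which were not computed without them. With the spread of the pair itself as the error, the edgeR exact test called 0 of 410 genes, with 28 at an unadjusted p under 0.05 and none of the members among them. That spread includes the difference under test, so the lack of calls there decides nothing about the members. The members did not move as a block, since their log2 ratios spanned 4.31.

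**Figure D1:**
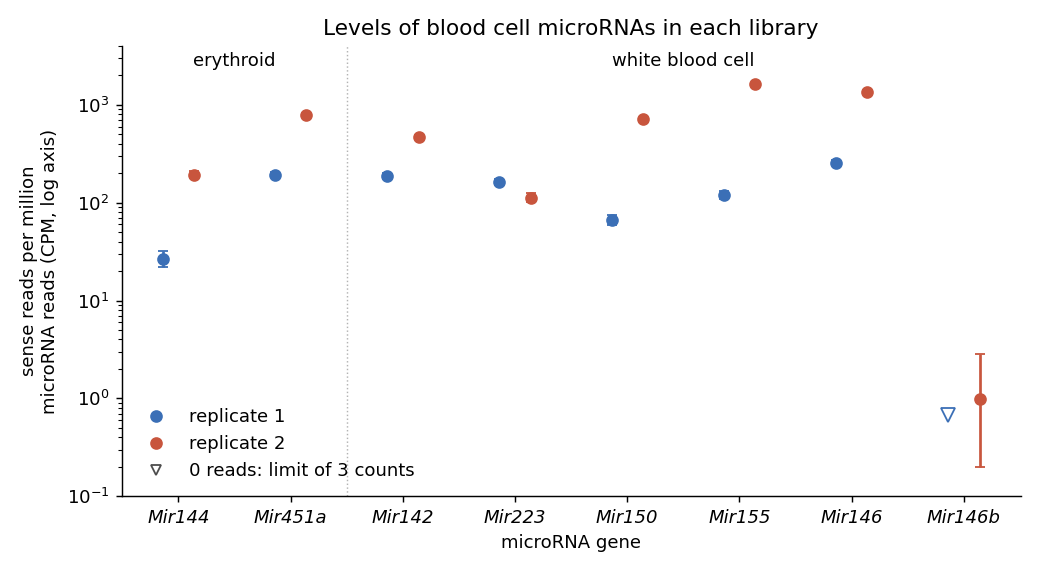
Level in CPM (log axis) of the 8 blood cell microRNA genes in replicate 1 (blue) and replicate 2 (red), with exact 95% counting intervals as bars. The open triangle marks Mir146b in replicate 1, which had 0 reads, at the limit of 3 counts. Mir223 is the member with the lower level in replicate 2.

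The erythroid pair was higher in replicate 2 in both its members. Mir451a had 864 reads (194 CPM) in replicate 1 and 2416 reads (786 CPM) in replicate 2, and it ranked 150 and 78 among all genes. The log2 ratio came to 1.39 (95% interval 1.28 to 1.51). Mir144 was the rarer of the pair, with 119 reads (26.7 CPM) and 593 reads (193 CPM), and ranks of 225 and 126. Its log2 ratio of 2.22 (1.94 to 2.52) was the larger.

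The reads of Mir451a per read of Mir144, as of any pair of genes within a library, do not depend on how the libraries are scaled. There were 7.26 Mir451a reads per Mir144 read in replicate 1 (5.99 to 8.87) and 4.07 in replicate 2 (3.72 to 4.46). The ratio was thus 1.78-fold higher in replicate 1 (1.44 to 2.20), and the intervals of the libraries did not overlap. The summed erythroid share was 0.0220% in replicate 1 (0.0207 to 0.0235%) and rose to 0.0979% in replicate 2 (0.0944 to 0.101%). On the log2 scale the sum differed by 1.52 (1.42 to 1.63).

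Among the white blood cell genes, Mir155, a product of activated macrophages and lymphocytes, had the largest ratio of any member. Its 534 reads (120 CPM) in replicate 1 stood against 5042 reads (1641 CPM) in replicate 2. Its rank went from 171 to 52, and the log2 ratio was 3.15 (3.02 to 3.28), above that of 96.8% of tested genes. Mir150, which represses Myb in lymphocytes, had 298 reads (66.8 CPM) and 2178 reads (709 CPM). Its log2 ratio was 2.78 (2.60 to 2.96), above that of 95.6% of tested genes.

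Mir146, induced by NF-kB and a repressor of Traf6 and Irak1, was the most abundant member in replicate 1 with 1137 reads (255 CPM). In replicate 2 it had 4180 reads (1360 CPM) and was second to Mir155. Its log2 ratio was 1.79 (1.69 to 1.88). Its relative Mir146b, with the same seed, had 0 reads in replicate 1, for which the limit of 3 counts is 0.673 CPM, and 3 reads in replicate 2 (0.976 CPM, 0.201 to 2.85). In replicate 1 Mir146 was at least 379-fold above Mir146b, taking the limit of 3 counts for that library. In replicate 2 there were 1393 Mir146 reads per Mir146b read (476 to 6759). Of the reads counted at this pair of genes, nearly all were at Mir146 in both libraries.

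Mir142 and Mir223 stood apart from the other white blood cell genes. Mir142, the general blood lineage marker, was counted at 839 reads (188 CPM) in replicate 1, against 1450 reads (472 CPM) in replicate 2. Its log2 ratio of 0.70 (0.58 to 0.82) was under the threshold. Mir223, the myeloid gene, went the other way, from 726 reads (163 CPM) in replicate 1 to 345 reads (112 CPM) in replicate 2. Its log2 ratio was −1.16 (−1.35 to −0.98). That call depends on the scaling: Mir223 stood at −0.88 when DESeq2 size factors were used and −0.54 when total reads were used, negative under both but not past the threshold. Scaling by total reads also made Mir142 a higher call, at 1.33. The members then numbered 6 higher and 0 lower, where 32.9% of tested genes were higher and 28% lower. Under DESeq2 size factors they numbered 5 and 0, where 24.4% and 31% of tested genes were called.

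**Figure D2:**
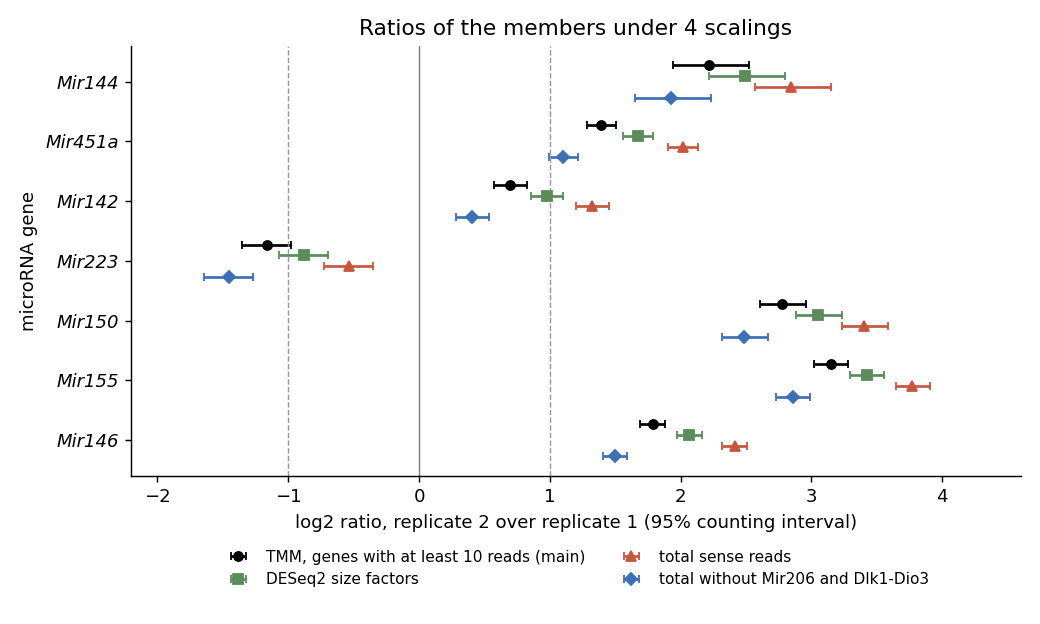
Log2 ratio of replicate 2 over replicate 1 for the 7 tested members, with 95% counting intervals, under TMM (black) and 3 other scalings (colours). Dashed lines mark the threshold of 1 in either direction. Another scaling shifts all members together, so Mir155 stays the highest and Mir223 the lowest.

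The order of the white blood cell genes within a library does not depend on scaling, and it differed. In replicate 1 there were 2.44 Mir223 reads per Mir150 read (2.13 to 2.80), and in replicate 2 there were 0.158 (0.141 to 0.178), a 15.4-fold difference (12.9 to 18.3). Per read of Mir142, Mir223 stood at 0.865 (0.782 to 0.957) in replicate 1 and at 0.238 (0.211 to 0.268) in replicate 2. Mir142 itself stood at 2.82 reads per Mir150 read (2.46 to 3.22) in replicate 1 and 0.666 (0.623 to 0.712) in replicate 2. The pair of activation and lymphocyte genes differed least: Mir155 had 1.79 reads per Mir150 read (1.55 to 2.07) and 2.31 (2.20 to 2.44), a 1.29-fold difference (1.11 to 1.5). Mir223 thus took a smaller part of the white blood cell reads in replicate 2, and Mir150 and Mir155 a larger one.

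**Figure D3:**
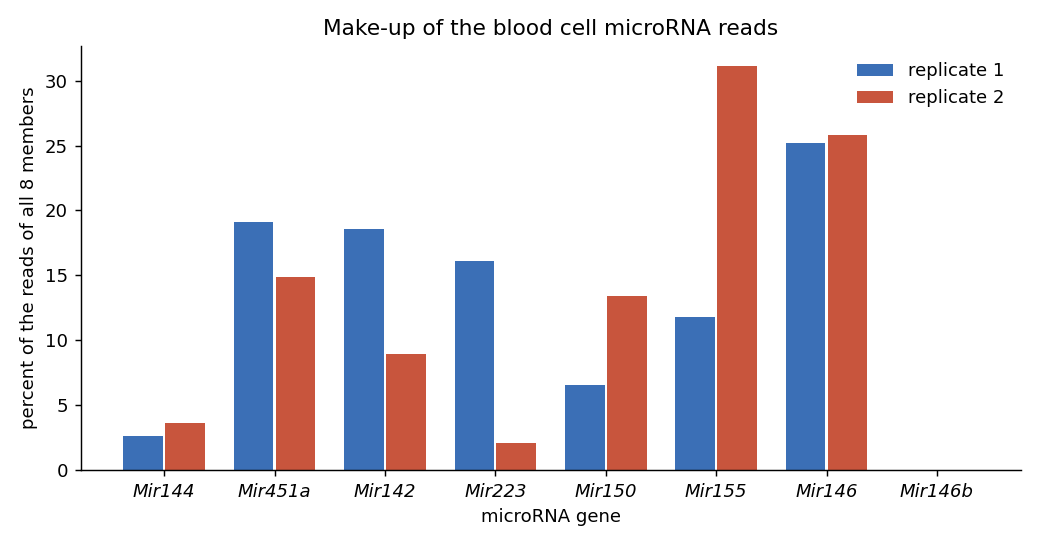
Percent of the summed reads of the 8 blood cell microRNA genes that each gene holds in replicate 1 (blue) and replicate 2 (red). Mir155 holds 11.8% and 31.1%, Mir223 holds 16.1% and 2.13%, and Mir146 holds a like part of both libraries (25.2% and 25.8%).

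In replicate 1 the order by CPM was Mir146, Mir451a, Mir142, Mir223, Mir155, Mir150, Mir144 and Mir146b. The counting intervals of Mir451a (181 to 207 CPM) and Mir142 (176 to 201 CPM) overlapped there, and those of the other neighbours did not. In replicate 2 the order was Mir155, Mir146, Mir451a, Mir150, Mir142, Mir144, Mir223 and Mir146b, with no overlap between neighbours. Inserts were of mature microRNA size, so these levels were not corrected for gene length. Ligation favours some ends over others, and its effect on the order of the genes was not tested.

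The white blood cell genes together came to a share of 0.0793% (0.0767 to 0.0819%) in replicate 1 and 0.429% (0.422 to 0.437%) in replicate 2. Their summed log2 ratio was 1.81 (1.76 to 1.87). There were 0.278 erythroid reads per white blood cell read in replicate 1 (0.259 to 0.299) and 0.228 in replicate 2 (0.219 to 0.237). Against Mir126a, a microRNA of endothelial cells with 113331 and 203314 reads, erythroid reads were 1.71-fold higher in replicate 2 (1.59 to 1.83) and white blood cell reads 2.08-fold higher (2.00 to 2.16). The white blood cell rise did not hold for all its genes. Mir150, Mir155 and Mir146 had log2 ratios above that of Mir126a (0.75), but Mir142 was at 0.70 and Mir223 at −1.16. Mir155 and Mir146, both also expressed outside the blood, held 31.1% and 25.8% of all member reads in replicate 2. Comparisons of these sums with each other, and of sums and members with Mir126a, were chosen after the values were seen. In whole tissue, more blood cells and more of a microRNA per cell cannot be told apart. Nor can either be told apart from reads of other cells or from a different tissue in replicate 2.

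**Figure D4:**
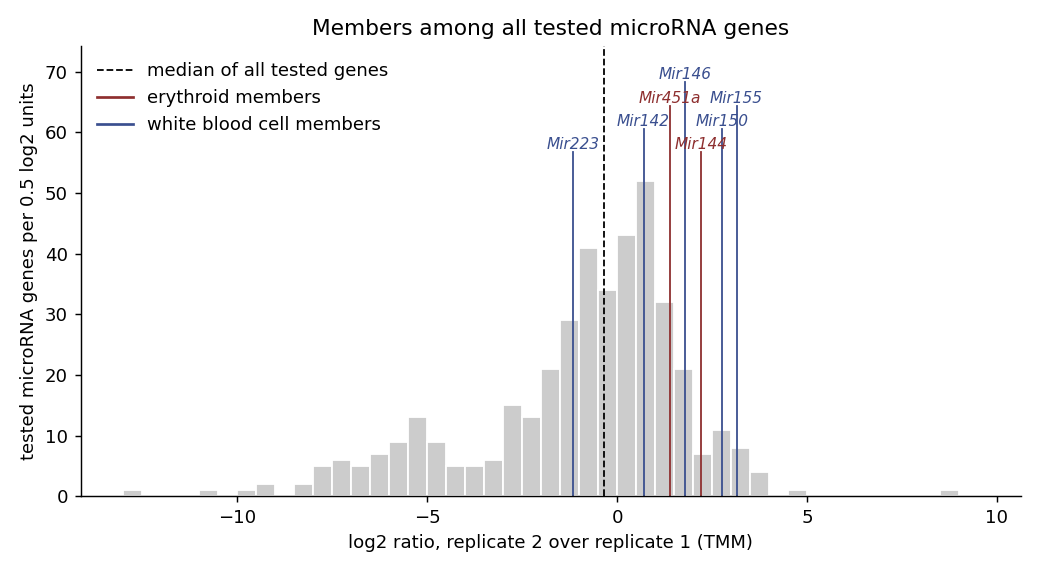
Histogram of the log2 ratios (replicate 2 over replicate 1, TMM) of all 410 tested microRNA genes in steps of 0.5. Lines mark the erythroid members (dark red) and the white blood cell members (blue), and the dashed line marks the median of all tested genes at −0.33. The members run from Mir223 at −1.16 to Mir155 at 3.15.

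Other microRNAs used by blood cells were split in direction. Of 20 listed genes 19 are annotated under the listed name, all but Mir486b. Of these 17 were tested, of which 5 were higher in replicate 2 and 4 were lower, with a median log2 ratio of 0.23. Among all tested genes 17.6% were higher and 36.1% lower, with a median of −0.33. Mir221 and Mir222, which repress Kit in erythroid precursors, had log2 ratios of 3.39 and 2.27. Mir132, found in several immune cells and in neurons, was higher at 1.58. Mir486, abundant in red cells but also made in muscle from Ank1, had 456 and 1468 reads and was higher at 1.60. It shares a stretch of 22 nt with the annotated gene Mir3107, so its count is uncertain. Mir3107, which is not counted in the list, had 9 and 27 reads and was higher at 1.40. Mir21a, present in myeloid cells and in many others, was lower at −1.67. Mir181a-1, known from lymphocyte development, was lower at −1.15, and it shares a stretch with Mir181a-2. The most abundant listed genes that were not called were Mir652, Mir191 and Mir125a, at 0.57, 0.22 and 0.79. The list's counts depend on the scaling: 8 were higher and 2 lower by total reads, where 32.9% and 28% of all tested genes were, and 6 and 2 by DESeq2 size factors, where 24.4% and 31% were.

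Leaving out the members themselves, the microRNA genes whose ratio lay nearest to the erythroid sum, over these 2 libraries and among genes with at least 100 reads, were Mir187 (1.51), Mir132 (1.58) and Mir22 (1.46). Of the same genes, those nearest to the white blood cell sum were Mir497 (1.86), Mir184 (1.89) and Mir208b (1.93). With 2 libraries such likeness is a single number per gene.

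Markers of other cell types also differed between the libraries, in both directions. For reading their counts, 17.6% of all tested genes were higher in replicate 2 and 36.1% lower. The heart gene Mir208a was higher in replicate 2 at a log2 ratio of 8.86, and the skeletal muscle genes Mir206 and Mir133b were lower, with 2 of 2 called and a summed share of 14.6% in replicate 1 and 0.00361% in replicate 2. Of 5 epithelial genes 3 were higher, led by Mir200c (90 and 1094 reads), with shares of 0.00401% and 0.0424%. Of 4 fibroblast genes 3 were tested and all 3 were lower, led by Mir214 at −1.68, with shares of 0.591% and 0.281%. Mir126a of the endothelium (2.54% and 6.62%) and the smooth muscle pair led by Mir143 (2.17% and 4.90% for the pair) were not called, at 0.75 for Mir126a and 0.54 for Mir143. Of 4 neural genes, Mir124a-1 and Mir9-1 had 0 reads in both libraries, which does not show absence because multimapping reads were not counted at any gene. Of the others, Mir128-1 was lower at −2.11 and 1, Mir219a-1, was higher at 1.45. The part of these differences in the blood cell values was not tested.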

How the data were processed

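For each library the authors deposited raw counts of reads at each microRNA gene, in unstranded, sense and antisense columns, with assembly mm10 and GENCODE M21 per the deposited description files. For the aligner and trimming, nothing is stated in the labels or headers (not given in the sources used here). The 4 summary lines were left out. They held 35.7% and 45.1% multimapping reads, 9.97% and 8.60% unmapped reads and, in the sense column, 2.05% and 3.83% reads outside the annotated genes (replicate 1 and 2). All 2202 identifiers matched GENCODE M21. Columns of other samples numbered 0.

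Sense counts were used. TMM (edgeR 4.0.16, R 4.3.3) was computed on genes with at least 10 reads in total, and log2 ratios had a prior count of 1. Those 410 genes were given exact binomial tests with Benjamini-Hochberg adjustment. Adjusted p-values were mostly too small to be informative, so intervals are given. Shares and ratios within a library have exact Clopper-Pearson 95% intervals, and differences between such ratios have normal intervals on the log scale. All cover counting error only. No molecular identifiers are named, so copies of the same molecule may be counted apart and the intervals may be too narrow. With 1 group of 2 libraries, the only spread between samples is that of the pair itself. The comparison was run on simulated counts that carried counting noise only. That run does not show how the test acts on libraries with a wider spread. Python 3.11.15, scipy 1.17.1 and pandas 2.3.3 were used.

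Named genes are all members, up to 6 called and 3 uncalled genes of the wider list by mean CPM, the 3 nearest genes to each sum and the leading marker of each other cell type. Mir133b, Mir124a-1, Mir9-1 and Mir219a-1 were added after their values were seen. The members and lists were chosen with earlier results of these data known. Alternatives were other scalings, read minimums, the unstranded column, a larger fold, the edgeR exact test, other denominators and each library alone.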

Additional observations from a re-analysis of the deposited data

Results flagged for a closer look

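The antisense column held reads at the genes opposite to Mir451a and Mir142, and no member had more than 1 antisense read. Mir451b had 864 antisense reads in replicate 1 and 2416 in replicate 2, the same numbers as the sense reads of Mir451a, and 0 sense reads of its own. Mir142b had 839 and 1451 antisense reads, against 839 and 1450 sense reads of Mir142, and 0 sense reads. Mir451b covers the same bases as Mir451a, and Mir142b contains Mir142. These are thus the reads already compared as sense reads of Mir451a and Mir142, seen from the other strand, apart from 1 read of Mir142b in replicate 2. The antisense column itself was not used.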

How the results depend on the processing

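No paired analysis was possible because there is 1 group, so no number is shared between groups, and leaving out a library leaves no ratio. Of the 5 members called higher, 5 were called under every other scaling and read minimum. Mir142 joined them with total reads (6). The unstranded column kept 4, since it holds 0 reads of Mir451a and Mir142. With a log2 ratio of at least 2 there were 3. The edgeR exact test with the dispersion of the pair (1.23) called 0 members higher and 0 lower, 0 of all genes higher and 0 lower, and 0 of the wider list higher and 0 lower. That dispersion includes the difference under test. In that test 28 of 410 genes had an unadjusted p under 0.05, and the lowest unadjusted p of a member was 0.263 (adjusted p = 1).

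The call of Mir223 was lost (0 members lower) with DESeq2 size factors, total reads, the unstranded column (−0.99), a log2 ratio of at least 2 and TMM from all genes (−0.96). The last was added after seeing the data, and 31.7% of all tested genes were lower there. In the unstranded column 121 of 385 tested genes were lower. The call was kept without Mir206 and the Dlk1-Dio3 genes in the totals, at −1.45, where 42.4% of all tested genes were lower. Over all tested genes the median shifted by 0.26 with DESeq2 size factors, 0.59 with total reads, 0.19 with TMM from all genes and −0.29 without Mir206 and the Dlk1-Dio3 genes.

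In that order the erythroid sum stood at 1.80, 2.15, 1.72 and 1.23, and the white blood cell sum at 2.09, 2.44, 2.01 and 1.52. In the unstranded column they stood at 2.39 and 2.21. There the TMM sizes differed too, since Mir144 kept all its reads and moved from 2.22 to 2.39, and 12.1% and 19.7% of the erythroid reads and 76.3% and 89.0% of the white blood cell reads of replicates 1 and 2 were left there. With total reads 135 of all genes were higher (32.9%) and 115 lower, against 72 and 148 by TMM. Higher genes numbered 45 of 266 with at least 100 reads and 32 of 410 with a log2 ratio of at least 2. At that larger ratio the wider list had 2 higher and 1 lower of 17 tested, where 105 of the 410 genes were lower. In the wider list, 8 were higher and 2 lower with total reads, and 2 were lower with DESeq2 size factors. Each library alone gave erythroid shares of 0.0220 to 0.0979% and white blood cell shares of 0.0793 to 0.429%. Depth limits Mir146b, whose 3 reads allow no comparison.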
